A study of Mus musculus with 6 samples.

Results

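The PARP family and its partner Dtx3l were followed in bone marrow stromal cells (BMSCs) of old and young mice. The genes were Parp1, Parp2, Parp3, Parp8, Parp9, Parp10, Parp11, Parp12, Parp14 and Dtx3l, picked by gene symbol in the platform annotation. For each gene the transcript cluster, the array's set of probes for 1 gene, was chosen by the highest mean over all 6 arrays among those that list a single gene. Of the 10 genes 9 had such a transcript cluster, out of 30702 genes with one on the array, and each of the 9 had only 1. Parp1 had none. Its transcript cluster also lists the microRNA gene Mir6904, whose RefSeq gene model lies inside that of Parp1, so no value is given under its name. The genes were proposed with the comparison of old and young arrays in view. Their age differences are therefore described without a test.

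Cells were compared from mice of 18 months (aged, 3 arrays) and of 3 months (young, 3 arrays); the labels give no strain, sex or genotype. In both ages the cells came from crushed femurs digested with collagenase A, were sorted for Sca-1 and CD29 with CD45- and CD11b- gates, and were expanded in culture beyond the first passage, so the values are those of cultured cells. The titles call the arrays biological replicates but tie none to an animal, so p-values measure the spread between arrays, which may be technical. The sources give no culture or hybridisation batch, and an effect of batch cannot be told apart from one of age.

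PARP enzymes split NAD and attach its ADP-ribose part to proteins, and in some cases to nucleic acids. Parp1 and Parp2 build long poly(ADP-ribose) chains at DNA breaks and so call in repair factors, while Parp3 attaches single units and works with the end joining machinery. Most other members transfer single units, and several of them, with the ubiquitin ligase Dtx3l, are induced by interferon and take part in the response to viruses. In human cells PARP9 binds DTX3L and the pair modifies ubiquitin. Interferon acts through transcription factors that bind the interferon-stimulated response element (ISRE) or the gamma-activated site (GAS) in DNA.

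RefSeq promoter windows (build GRCm38.p6, 250 bases before to 50 after an annotated start) were at hand for 7 of the 10 genes, Parp1, Parp2, Parp3, Parp8, Parp11, Parp12 and Dtx3l, and Parp9, Parp10 and Parp14 are named only. Both strands were searched for the ISRE core GAAANNGAAA, the GAS motif TTCNNNGAA and the GC box GGGCGG. The ISRE core occurred in 3.44%, the GAS motif in 8.30% and the GC box in 35.7% of all 32851 windows. Parp11 was the gene of the 7 with an ISRE core. It lay in the window of the first of its 2 annotated starts, on the opposite strand at bases -44 to -35 from the start, and overlapped a GAS motif at bases -37 to -29. The window of the second Parp11 start held neither and had 1 GC box. Parp1 had 4 GC boxes, Parp8 had 3 and Parp2 had 1. None of the 3 motifs matched in the windows of Parp3, Parp12 and Dtx3l, which says only that these letters are not in those windows. Windows of 5 starts are shown 5′ to 3′ along the gene, with motif matches in capitals: the first Parp11 start, which holds the only ISRE core of the 8 windows, Dtx3l and Parp12, whose levels were far apart between the ages, and the repair genes Parp2, whose ages overlapped, and Parp3, whose ages did not. In the order shown they lie at chr6:127446590-127446889 (plus strand), chr16:35938978-35939277 (minus strand), chr6:39118300-39118599 (minus strand), chr14:50807666-50807965 (plus strand) and chr9:106476900-106477199 (minus strand).
Parp11: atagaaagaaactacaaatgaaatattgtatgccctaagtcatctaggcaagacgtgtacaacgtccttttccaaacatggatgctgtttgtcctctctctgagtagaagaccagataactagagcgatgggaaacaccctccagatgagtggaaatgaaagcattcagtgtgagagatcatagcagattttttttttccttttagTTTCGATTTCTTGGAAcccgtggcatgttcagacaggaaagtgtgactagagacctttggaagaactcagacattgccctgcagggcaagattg
Dtx3l: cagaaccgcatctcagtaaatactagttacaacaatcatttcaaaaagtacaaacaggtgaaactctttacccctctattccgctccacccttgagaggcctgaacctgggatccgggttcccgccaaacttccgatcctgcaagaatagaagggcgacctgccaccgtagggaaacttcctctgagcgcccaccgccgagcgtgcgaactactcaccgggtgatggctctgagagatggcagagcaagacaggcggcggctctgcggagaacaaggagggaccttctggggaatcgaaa
Parp12: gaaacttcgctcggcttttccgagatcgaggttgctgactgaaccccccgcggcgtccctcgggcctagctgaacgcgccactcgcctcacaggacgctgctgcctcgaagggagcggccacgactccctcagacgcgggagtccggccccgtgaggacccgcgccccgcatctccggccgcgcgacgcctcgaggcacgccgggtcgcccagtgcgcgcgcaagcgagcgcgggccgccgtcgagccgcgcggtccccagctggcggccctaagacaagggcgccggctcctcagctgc
Parp2: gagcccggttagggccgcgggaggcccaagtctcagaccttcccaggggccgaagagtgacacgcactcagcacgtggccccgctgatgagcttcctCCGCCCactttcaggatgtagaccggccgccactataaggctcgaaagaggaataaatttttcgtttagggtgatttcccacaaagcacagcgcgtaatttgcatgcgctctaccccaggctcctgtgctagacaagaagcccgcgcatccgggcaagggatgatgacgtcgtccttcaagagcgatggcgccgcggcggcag
Parp3: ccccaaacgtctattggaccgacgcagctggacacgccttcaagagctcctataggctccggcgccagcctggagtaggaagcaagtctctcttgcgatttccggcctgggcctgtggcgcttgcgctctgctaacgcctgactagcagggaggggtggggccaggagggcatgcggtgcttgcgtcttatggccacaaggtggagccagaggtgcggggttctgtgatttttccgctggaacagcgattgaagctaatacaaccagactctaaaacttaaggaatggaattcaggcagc

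All values are the deposited log2 expression values, so a difference of 1 is a 2-fold change. Array medians lay between 5.39 and 5.44. The control probe sets were less level: their median difference, aged minus young, was -0.26 for negative and -0.15 for positive controls. It was 0.11 for background probes and 0.06 for spike-in probes. The largest rise of a negative control was 1.86. Whether these shifts touch the age differences, small or large, was not tested. Pearson's r across the tested genes was 0.995 to 0.999 within an age and 0.976 to 0.978 between ages, where genes are not independent replicates. Detection calls were not used here. Of the 5222 negative control probe sets, which stand for no gene, 95% had a mean below 7.61. A fold is given only where both ages lay above this limit. The level of one gene cannot be set against that of another on this array. CD29 (Itgb1) was bright at 11.76 ± 0.01 in aged and 11.86 ± 0.04 in young cells (SD, n = 3 each), while CD45 (Ptprc), at 3.62 and 3.65, and CD11b (Itgam), at 5.24 and 5.26, lay among the negative controls. The gene of Sca-1 (Ly6a) was not analysed here. All 12 measured blood cell markers of 14 had both means within the range of the negative controls. Their summed level was 9.52 to 9.57 on aged and 9.35 to 9.45 on young arrays on the log2 scale. All 6 endothelial markers lay in the same range, with summed levels of 8.31 to 8.34 on aged and 8.19 to 8.22 on young arrays. The 7 measured stromal markers of 9 summed to 14.10 to 14.13 on aged and 13.66 to 13.69 on young arrays, and of these 3 rose and 2 fell (limma, Benjamini-Hochberg adjusted p under 0.05), where 18.4% of all genes tested rose and 22.1% fell. The fall of Itgb1 did not pass under quantile normalization, median centring, eBayes without trend or the replicate block, nor when any one aged array or young replicate 2 was left out. Of the 7 blood cell markers tested 2 rose, Ly6g of neutrophils by 0.90 and Nkg7 of killer cells by 0.22, and 0 fell. Of the 4 endothelial markers tested Kdr rose by 0.69, and Tek and Vwf fell by 0.22 and 0.14. Tek and Vwf did not pass when any one aged array was left out, and Nkg7 did not without aged replicate 2 or 3 or young replicate 1 or 2. The part of these marker shifts in the results was not tested.

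The 2 measured repair genes were not alike. Parp2, the polymerase that backs up Parp1 at single-strand breaks, had 8.63, 8.58 and 8.63 on the aged arrays, against 8.67, 8.65 and 8.53 on the young arrays. The ages overlapped, with means of 8.61 ± 0.03 in aged and 8.62 ± 0.08 in young cells (SD, n = 3 each). The difference was -0.00309 on the log2 scale. Parp3, which marks double-strand breaks with single ADP-ribose units, had 9.43, 9.43 and 9.43 on the aged arrays, against 8.47, 8.43 and 8.35 on the young arrays. Each aged array lay above each young one, and the gap between the closest arrays of the 2 ages was 0.96. The mean was 9.43 ± 0.00 in aged and 8.42 ± 0.06 in young cells (SD, n = 3 each), a difference of 1.01 or 2.02-fold.

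The antiviral family gene Zc3hav1, which did not rise, was not put in the interferon-induced group and is given below. All 6 measured genes grouped here as interferon-induced were higher on every aged array than on any young one. Their differences ran from 0.93 to 2.34 on the log2 scale with a median of 1.98, against a median of 0.01 over all 20187 genes tested. Counting all 9 measured genes, 8 had groups that did not overlap with aged higher and 0 with aged lower. Over all genes tested 24.4% did not overlap with aged higher and 26.9% with aged lower. As this contrast was in view when the genes were proposed, nothing is read from the count. All 9 had a mean above the low-value limit of 5.40 in both ages, so none entered through 1 age alone.

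Parp14, Dtx3l and Parp9 form a cluster on mouse chromosome 16. Parp14, a large transferase with macrodomains that bind ADP-ribose, had 9.59, 9.55 and 9.51 on the aged arrays, against 7.30, 7.21 and 7.12 on the young arrays. The young values lay within the range of the negative controls, so the difference of 2.34 between measured values carries no fold. Parp9, which has macrodomains and little transferase activity of its own, had 9.68, 9.65 and 9.61 on the aged arrays, against 7.42, 7.40 and 7.37 on the young arrays. Its difference was 2.25, also from a young mean within that range. Dtx3l, the ubiquitin ligase that pairs with Parp9, had 9.88, 9.87 and 9.77 on the aged arrays, against 8.10, 7.88 and 7.82 on the young arrays. The young arrays were more scattered here than for any other of the 9 genes, at 7.93 ± 0.15, against 9.84 ± 0.06 in aged cells (SD, n = 3 each), and the difference was 1.91 or 3.75-fold.

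Outside the cluster, Parp12, an antiviral transferase with CCCH zinc fingers, had 11.55, 11.52 and 11.57 on the aged arrays, against 9.57, 9.48 and 9.40 on the young arrays. At 11.55 ± 0.02 in aged and 9.48 ± 0.08 in young cells (SD, n = 3 each) it was 4.17-fold higher, the largest fold among the genes for which one can be given. Parp10, a transferase of single units first found in human cells as a partner of MYC, had 9.72, 9.73 and 9.73 on the aged arrays, against 8.44, 8.29 and 8.27 on the young arrays. The aged arrays nearly coincided, and the mean of 9.72 ± 0.00 in aged cells was 2.63-fold that of 8.33 ± 0.09 in young cells (SD, n = 3 each). Parp11, a smaller transferase with a WWE domain, had 7.55, 7.63 and 7.54 on the aged arrays, against 6.71, 6.59 and 6.63 on the young arrays. Both of its means lay within the range of the negative controls, so the difference of 0.93 between its measured values carries no fold.

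Parp8, a transferase of single units that is not counted here with either group, had 9.99, 10.03 and 10.01 on the aged arrays, against 9.61, 9.50 and 9.48 on the young arrays. Its groups did not overlap, and the difference of 0.48 or 1.39-fold was smaller than that of each interferon-induced gene.

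**Figure D1:**
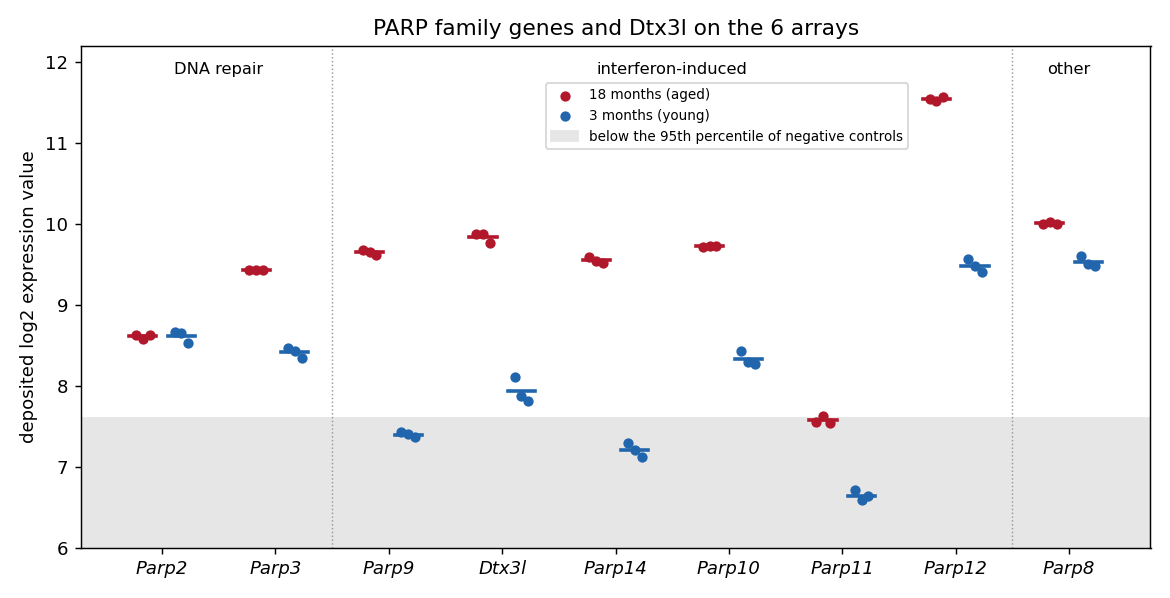
Deposited log2 expression values (vertical axis) of the 9 measured genes on each array, with 18-month arrays left of 3-month arrays for each gene and a bar at the mean of 3. The shaded band lies below 7.61, the limit under which 95% of negative controls fall; Parp2 overlaps between the ages, the other 8 genes do not, and the band holds the aged mean of Parp11 and the young points of Parp9, Parp14 and Parp11.

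In order of difference the genes ran Parp14, Parp9, Parp12, Dtx3l, Parp10, Parp3, Parp11, Parp8 and Parp2. This order is a description of the measured values and not a test, and the places of Parp14, Parp9 and Parp11 are not exact, since at least one of their means lay within the negative control range. Set against the spread between arrays, the neighbours Parp14 and Parp9 (0.09 apart), Parp12 and Dtx3l (0.16 apart) and Parp3 and Parp11 (0.08 apart) lay within 2 combined standard errors of each other. Among the 20187 genes tested, ordered by signed difference, Parp12 was at rank 106, Dtx3l at 128, Parp10 at 246, Parp3 at 401 and Parp8 at 1162. Parp2 was at rank 10839.

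The arrays of an age were not equally placed. Young replicate 1 was the highest of the young arrays for all 9 genes, as it was for 43.8% of all genes tested. The young arrays also had the larger SD for 8 of the 9 genes, with SDs of 0.004 to 0.06 on aged and 0.03 to 0.15 on young arrays. Over all genes tested the median SD was 0.04 on aged and 0.07 on young arrays. Without young replicate 1 the median difference of the interferon-induced genes was 2.05 in place of 1.98.

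The 3 neighbours on chromosome 16 were set beside the genes that flank them, chosen by position. In RefSeq the order is Hspbap1, Parp14, 2 pseudogenes, Dtx3l, Parp9, a long noncoding RNA gene and Kpna1. The gene models of Dtx3l and Parp9 share 558 bases. Whether any probe lies in that stretch, and which gene it would read, was not tested. Hspbap1, whose rat protein binds Hsp27, had 7.96, 8.02 and 7.95 on the aged arrays, against 8.10, 7.94 and 7.86 on the young arrays (limma, adjusted p = 0.904). Kpna1, an importin alpha that carries proteins into the nucleus, had 8.10, 8.07 and 8.10 on the aged arrays, against 8.68, 8.64 and 8.58 on the young arrays. Kpna1 fell by 0.54 log2 units (limma, adjusted p = 7.95e-06). The 3 genes with differences of 1.91 to 2.34 thus lay between one whose ages overlapped and one that fell.

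**Figure D2:**
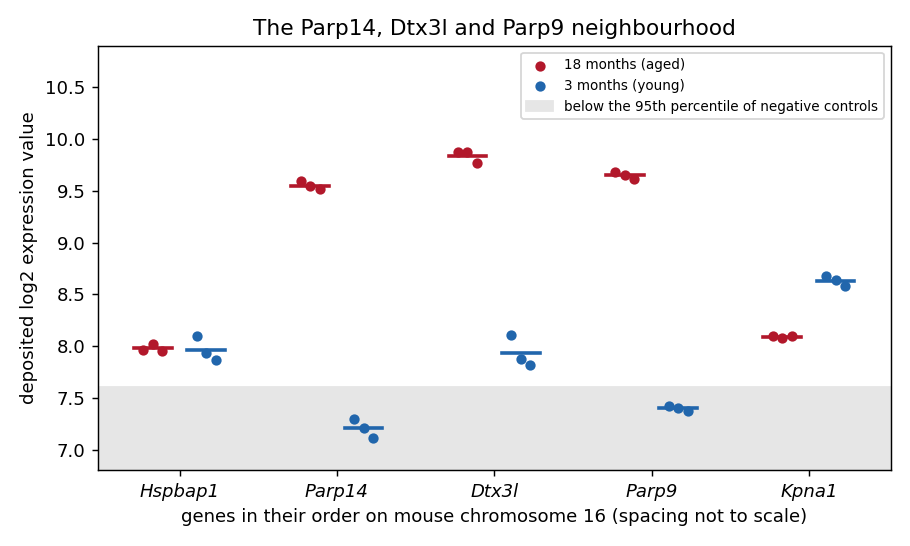
Deposited log2 expression values (vertical axis) of Hspbap1, Parp14, Dtx3l, Parp9 and Kpna1 in their order on chromosome 16, 18-month arrays left of 3-month arrays, with bars at the mean of 3 and the negative control range shaded. Parp14, Dtx3l and Parp9 are higher on the aged arrays by 1.91 to 2.34, Hspbap1 overlaps and Kpna1 is lower.

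The nearest protein-coding genes on both sides of the 9 measured genes, members aside, came to 14, of which 13 were measured and 11 passed the low-value limit. Among the 11, 3 rose and 4 fell and the median was 0.01 (limma), beside 18.4% higher and 22.1% lower over all genes tested. Emb, next to Parp8, encodes the cell adhesion protein embigin and rose by 1.74 (adjusted p = 9.64e-08), more than Parp8 itself. Kdm7a, a histone demethylase next to Parp12, fell by 0.79 (adjusted p = 2.78e-06). Rrp9, a ribosomal RNA processing factor next to Parp3, fell by 0.15 (adjusted p = 0.00971).

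By the distance between values centred over the 6 arrays, the 5 genes most like Parp14 were Trim12c, Vegfd, Rsad2, Gbp9 and Ly6c1, at distances of 0.10 to 0.12 on the log2 scale. Parp9 was ninth nearest, at 0.14, Parp12 ranked 40 and Dtx3l ranked 77. Farther off, Parp10 ranked 217, Parp3 378, Parp11 455, Parp8 1142 and Parp2 10437. The young means of Trim12c and Vegfd, 6.89 and 7.47, lay within the negative control range. Trim12c, Gbp9 and Ly6c1 have close paralogs, so their probes may read more than 1 gene. The 5 genes had age differences of 2.36 to 2.41, against 2.34 for Parp14. The distance includes the age difference itself, so genes near Parp14 must have a like difference. Nothing is read from the match or from the ranks.

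The 7 other PARP family genes, which were not among the 10, were tested with limma over all 20187 genes. Of the 7, 2 rose and 2 fell, and 3 did not pass, beside 18.4% higher and 22.1% lower over all genes tested. The median difference of the 7 was -0.08, beside 0.01 for all genes. Tiparp, a transferase induced by the dioxin receptor, rose by 0.50 to 8.69 ± 0.03 in aged cells, against 8.19 ± 0.08 in young cells (SD, n = 3 each; limma, adjusted p = 3.62e-05), or 1.41-fold. Parp16, a transferase in the membrane of the endoplasmic reticulum, rose by 0.36 to 7.67 ± 0.03 in aged cells, against 7.30 ± 0.13 in young cells, where it lay within the negative control range (SD, n = 3 each; limma, adjusted p = 0.00217). Tnks and Tnks2, the tankyrases that mark axin and other proteins with poly(ADP-ribose), fell by 0.47 and 0.37 (adjusted p = 5.20e-06 and 1.00e-05).

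Zc3hav1, the antiviral protein ZAP that belongs to the family but transfers no ADP-ribose, had 10.37 ± 0.01 in aged and 10.46 ± 0.04 in young cells (SD, n = 3 each). Its difference of -0.08 did not pass (limma, adjusted p = 0.0530), but did with young replicate 3 left out and when the dimmer 70% of transcript clusters were dropped. Both of those fits called it lower in aged cells. Parp4, of the vault particle, had a difference of -0.09 (adjusted p = 0.110) and was called lower without young replicate 3. Its promoter window held 2 overlapping ISRE cores, at bases -150 to -141 and -144 to -135, and no such core was in the windows of the other 5 of these genes that had one, Parp6, Parp16, Tiparp, Zc3hav1 and Tnks2. Parp6 had -0.02 (adjusted p = 0.783).

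**Figure D3:**
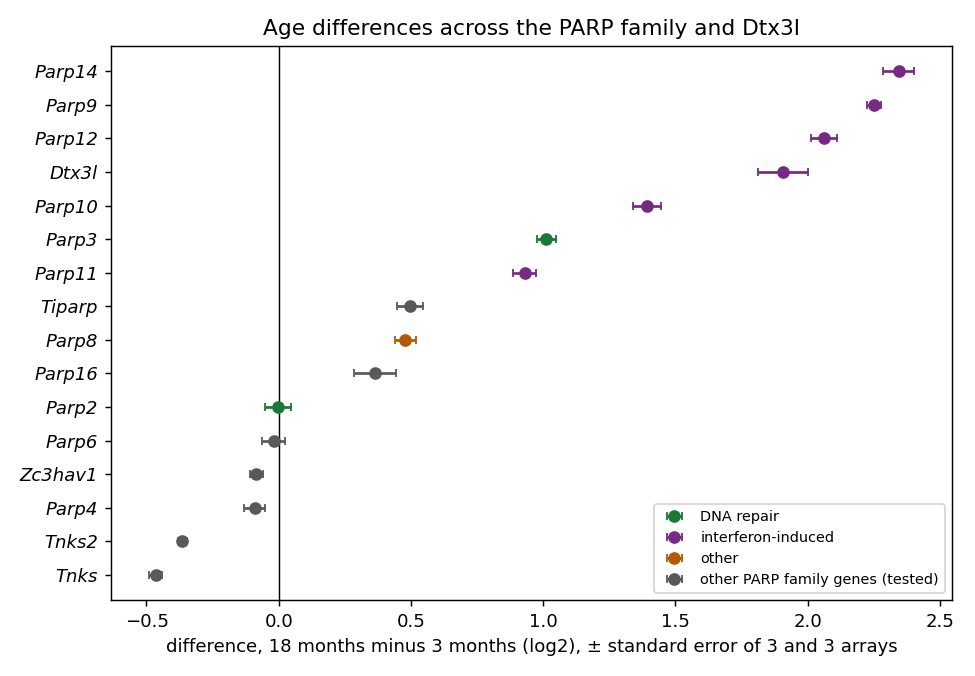
Difference in deposited log2 value, 18 months minus 3 months (horizontal axis), for the 9 measured genes by group and for the 7 other PARP family genes, with bars of 1 standard error from 3 and 3 arrays. The interferon-induced genes lie at 0.93 to 2.34, Parp3 lies at 1.01 beside Parp11, Parp2 lies at 0, and Tnks and Tnks2 lie below 0.

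Of 16 tested genes that erase or read ADP-ribose, from a list of 20, 3 rose, 5 fell and the median was -0.02. With 18.4% of all genes tested higher and 22.1% lower, these counts are no result about the list. Parg, the hydrolase that takes down poly(ADP-ribose) chains, fell by 0.35 (limma, adjusted p = 0.000125). Chd1l, a chromatin remodeller switched on by poly(ADP-ribose), fell by 0.27 (adjusted p = 0.00283) and Rnf146, a ubiquitin ligase that reads tankyrase products, fell by 0.26 (adjusted p = 0.00575). Nudt9, which hydrolyses free ADP-ribose in mitochondria, rose by 0.72 or 1.65-fold (adjusted p = 3.17e-06). The rises of Nudt16 and Macrod1, by 0.25 and 0.14, were each lost when any one aged array was left out, which left 1 gene that rose. Nudt16 was also lost without young replicate 2 or 3.

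Genes that work in repair with Parp1, Parp2 and Parp3 were tested in 2 lists. Of 17 tested genes of single-strand break and base excision repair 4 rose and 3 fell, with a median of 0.01 and differences between -0.44 and 0.28. With 18.4% of all genes tested higher and 22.1% lower, these counts are no result about the list. In 12 of the 17 at least one mean lay within the negative control range, Polb, Fen1, Ung, Mpg and Neil1 among them. Polb, the gap-filling polymerase, fell by 0.44 (limma, adjusted p = 7.45e-05), and Ung and Fen1, a uracil glycosylase and a flap nuclease, fell by 0.29 and 0.30. Fen1 did not pass without any one of the aged arrays. Mpg, a glycosylase of alkylated bases, rose by 0.28 (adjusted p = 0.00257), Neil1 by 0.15 and Apex1, the endonuclease at abasic sites, by 0.14. The count of genes that rose was 2 without any one aged array or young replicate 2, and Neil1 was lost in each of these.

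Of 7 tested end joining genes, the pathway in which Parp3 acts, 3 rose and 3 fell, with a median of -0.05. The shares over all genes tested were 18.4% higher and 22.1% lower. Xrcc5, which encodes Ku80, rose by 0.48 or 1.40-fold (limma, adjusted p = 1.96e-05), while its partner Xrcc6, which encodes Ku70, fell by 0.28 (adjusted p = 0.000332). Lig4, the ligase of the pathway, fell by 0.54 (adjusted p = 3.30e-05) and Prkdc, the DNA-dependent kinase, by 0.36 (adjusted p = 0.00178), with both ages of each within the negative control range. Nhej1 and Xrcc4 rose by 0.28 and 0.17 at such low values, and Xrcc4 did not pass when any one array other than young replicate 1 was left out.

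Of the 4 other deltex ligases, relatives of Dtx3l, 1 rose and 1 fell, beside 18.4% higher and 22.1% lower over all genes tested. Dtx4, which acts in Notch signalling, had 9.19 ± 0.01 in aged and 8.89 ± 0.10 in young cells (SD, n = 3 each) and rose by 0.30 (limma, adjusted p = 0.00130). Dtx3 fell by 0.18 (adjusted p = 0.0260) and did not pass after median centring or without aged replicate 1, aged replicate 2 or young replicate 2. Dtx1 and Dtx2 had differences of 0.11 and -0.04 and did not pass (adjusted p = 0.290 and 0.542), though Dtx1 did without young replicate 3.

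Among enzymes of NAD, the substrate of the family, 5 of 14 tested genes were higher and 2 lower, with a median of 0.06, where 18.4% of all genes tested were higher and 22.1% lower. Of the 14, 10 had a mean within the negative control range. Nampt, the rate-limiting enzyme of NAD salvage, rose by 0.38 or 1.30-fold (limma, adjusted p = 2.10e-05). Nmnat2 and Nadsyn1, which make NAD from its precursors, rose by 0.58 and 0.28 within the negative control range. Nadk2, the mitochondrial NAD kinase, fell by 0.77 to 7.92 ± 0.06 in aged cells, against 8.69 ± 0.06 in young cells (SD, n = 3 each; adjusted p = 2.85e-06). Nnt, which couples NADH to NADPH in mitochondria, fell by 0.17 (adjusted p = 0.00575).

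Of 12 tested interferon signalling factors 9 rose and 1 fell, with a median of 0.63. Over all genes tested 18.4% were higher and 22.1% lower. The list was chosen with earlier results of these data known, so nothing is read from its counts, and its p-values are descriptive. Stat2, a transcription factor of the type I interferon response, rose by 2.12 and Usp18, a brake on the receptor, by 2.92 (limma, adjusted p = 8.87e-09 and 6.50e-09), and Irf7, which drives interferon production, rose by 3.28 (adjusted p = 7.54e-10). Ifnar1, a chain of the type I receptor, fell by 0.14 (adjusted p = 0.0149) and did not pass after median centring or without aged replicate 1 or 2. Whether these factors have a part in the PARP differences was not tested.

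Of the 77 tested genes in these 7 lists 44 passed, 27 higher and 17 lower, beside 18.4% higher and 22.1% lower over all genes tested. When tested against a difference of 0.3 on the log2 scale 14 passed. All 7 lists were chosen with earlier results of these data known, so nothing is read from these counts. In bulk samples like these a larger share of cells with a transcript and more of it per cell cannot be told apart.

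**Figure D4:**
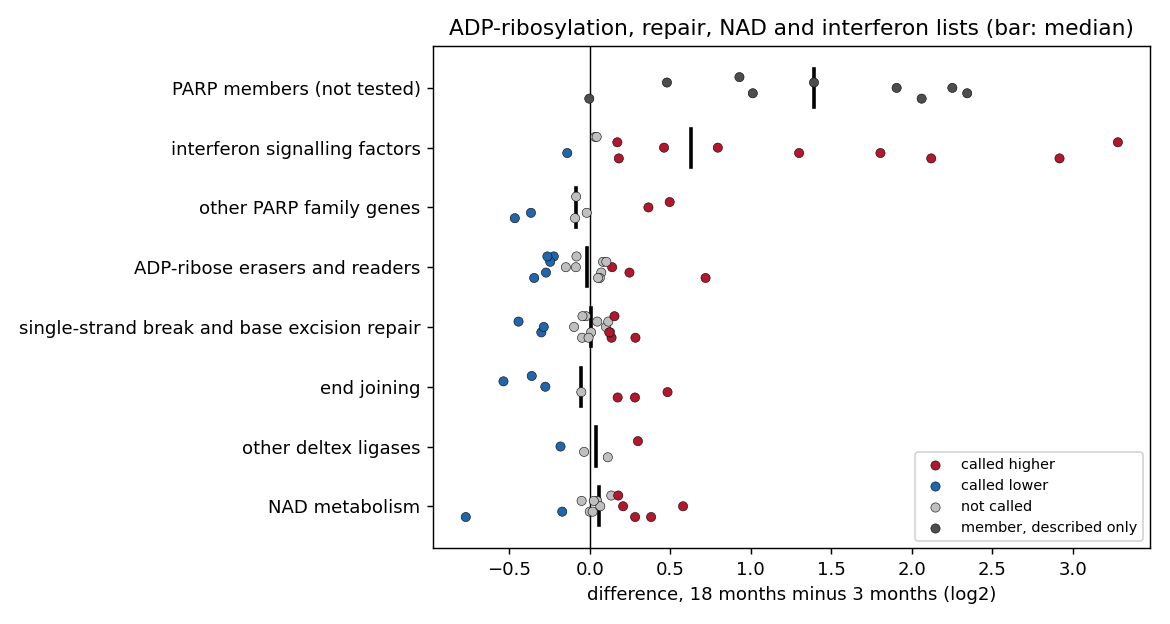
Difference in deposited log2 value, 18 months minus 3 months (horizontal axis), for each gene of the 7 lists and, in the top row, for the 9 measured PARP genes and Dtx3l, which were not tested; vertical bars are medians and colours give the limma call. Medians are 1.39 in the top row and 0.63 for interferon signalling factors, and lie between -0.08 and 0.06 for the other 6 lists.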

How the data were processed

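Gene expression of sorted and cultured mouse BMSCs was measured on 6 Affymetrix arrays, 3 per age, with groups and replicate numbers from the sample titles. The authors deposited log2 expression values for 72688 probe sets, 1 per array. MAS5 is named in the submitters' processing notes; background, scaling and summarisation are not given in the sources used here, and how they treat dim probes could change low values. The values were used as deposited. Symbols of 32750 annotated probe sets were updated through RefSeq (GRCm38.p6); 31258 had 1 gene and 1492 several, which were not used. The brightest probe set of each gene was kept (30702 genes), and 20187 genes with a mean over the 6 arrays of at least 5.40, the median of the transcript clusters, were tested with limma 3.58.1 in R 4.3.3 (lmFit, eBayes with trend, Benjamini-Hochberg). The test was run on simulated arrays with independent noise and the same spread in both ages. That run covers neither the unequal spread of these arrays nor a batch effect. With 3 arrays per age the smallest two-sided exact permutation p is 0.1. Errors are SDs of 3 arrays. The PARP genes, the lists and the motifs were chosen with earlier results of these data known. Named were all PARP genes and deltex ligases, up to 3 called genes per direction of each other list with the largest differences, and the 5 genes most like Parp14; the same rule was set for Parp1, which has no value here. Genes named by position were added later. A planned comparison of proteins was not made, as no protein sequences were used here. The number of arrays limits the precision. Alternatives were quantile normalization, median centring, 2 other filters, the mean of all probe sets, eBayes without trend or robust, a test against 0.3, the replicate number as a block, and leaving out each array. Figures were drawn with matplotlib 3.10.9.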

Additional observations from a re-analysis of the deposited data

How the results depend on the processing

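The differences of the 9 measured PARP genes and Dtx3l moved by less than the SD between arrays, pooled over both ages, under quantile normalization and median centring. The mean of all probe sets and the replicate block could not change them. Each gene had 1 probe set, and each replicate number occurred once in both ages. Leaving out 1 of 3 arrays always shifts a mean by less than this SD, so staying within it says nothing. The median of the interferon-induced genes was 1.93 to 2.05 with an array left out; Parp2 ran from -0.05 to 0.02 and has no direction. Tested against a difference of 0.3 on the log2 scale, which asks for more than a difference from 0, 1169 of all genes were higher and 816 lower. Of the 7 lists together 11 were then higher and 3 lower: 1 and 1 other PARP genes, 1 and 0 ADP-ribose genes, 0 and 0 base excision repair genes, 1 and 1 end joining genes, 0 and 0 deltex ligases, 1 and 1 NAD genes, and 0 interferon factors lower. Median centring left 0 deltex ligases and 0 interferon factors lower, and dropping the dimmer 70% of transcript clusters, which leaves fewer genes, left 1 end joining gene higher. With an array left out the ADP-ribose genes higher were 1 to 4, the base excision repair genes higher 2 to 6, the deltex ligases higher 1 to 2 and lower 0 to 1, the other PARP genes lower 2 to 4, and the interferon factors lower 0 to 1. The cause was not tested. Replicate numbers did not pair the arrays, as deviations of same-numbered arrays correlated at -0.05, 0.07 and 0.02. With the replicate number as a block 2 base excision repair genes were higher and 0 deltex ligases lower. Of all genes 3524 were then higher and 4204 lower. Values below 7.61 are within the range of the negative controls, which limits Parp11 in aged and young cells, and Parp9 and Parp14 in young cells.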
